A study of Homo sapiens with 23 samples.

Results

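The genes described here are 46 genes of homologous recombination, interstrand crosslink repair and the pathways that compete with them, taken from an RNA-seq table of 21658 genes by matching their NCBI Gene IDs. All 46 were in the table. The table holds 23 libraries of 4 established human ovarian cancer cell lines, OV-90, Kuramochi, OVSAHO and EFO-21, each as the parental line and as a line made resistant to prexasertib, an inhibitor of the checkpoint kinase CHK1. Resistance was raised by long culture in rising concentrations of the drug. Parental OV-90 has 2 libraries and each of the other 7 groups has 3, all labelled as biological replicates, and neither the drug level at harvest nor whether a resistant line was a clone or a pool is given in the sources used here. Libraries are named by the number in their column (2 to 24), which carries no order. The question the comparison addresses is which genes differ once a line has acquired resistance, and, for the parental lines, how far the 4 lines differ before it. All values are log2 expression values normalized by the authors, so a change is a difference of log2 values, resistant minus parental, and 1 unit is 2-fold.

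Homologous recombination repairs a DNA double-strand break by copying the intact sister chromatid. The break ends are first trimmed to single strands by the MRE11, RAD50 and NBN complex with the RBBP8 protein (CtIP), EXO1 and DNA2, and BRCA1 with its partner BARD1, PALB2 and BRCA2 then prepare the single strand for strand exchange, aided by mediators such as RAD51B, RAD51C, RAD51D, XRCC2 and XRCC3. The Fanconi core complex, whose E3 ligase subunit is FANCL, ubiquitinates the FANCD2 and FANCI pair where a crosslink blocks a replication fork, and structure-selective nucleases such as MUS81 with EME1, and the SLX4 scaffold, cut the joined molecules. The opposite choice is made by TP53BP1, RIF1 and shieldin (SHLD1, SHLD2 and MAD2L2), which protect ends from trimming, while POLQ and PARP1 serve an alternative form of end joining. CHK1 acts in the same cells to hold the cell cycle and stabilise forks when this repair is needed, and ovarian cancers of the high-grade serous type often carry defects in these genes.

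Of the 46 values, 45 came from the authors' robust linear model over exons and 1, that of FANCF, was a mean of log2 values from 1 exon feature. The exons of 19 of the 46 genes overlap those of another protein-coding gene, 3 of them on the same strand (RAD51D, RAD54B and RAD50). Another 3 have a copy listed as a pseudogene in the table (FANCD2, PARP1 and SHLD2). Reads could be split between such genes. The values are normalized, read counts were not analysed here, and the depth is unknown. Libraries of a group correlated over all genes at Pearson's r of 0.971 or more, except the 2 parental OV-90 libraries at 0.952. Those 2 libraries also stood apart in transcript length: with genes split into 4 equal bins of canonical transcript length, the median difference from the gene mean in the longest bin minus that in the shortest was -1.38 and -0.78 in parental OV-90, against -0.14 to 0.05 in resistant OV-90 and -0.34 to 0.53 in the other 18 libraries. Changes of single genes in OV-90 are therefore given with their value after removal of the length trend, an alternative chosen after seeing the data. Of the epithelial markers, KRT8 and KRT18 had group means between 8.77 and 12.3 in every group, while EPCAM was at 2.69 in resistant Kuramochi and PAX8 (1.95 to 2.10) and MUC16 (0.72 to 1.15) were near the bottom in OV-90. Of 8 markers of other cell types, the leukocyte marker PTPRC was at 4.58 or below in every group, whereas the liver gene ALB reached 9.11 in OV-90 and the endothelial genes PECAM1 and CDH5 reached 8.55 and 9.33 in EFO-21. After resistance 3 of the 8 epithelial markers were lower in OV-90, 7 in Kuramochi, 7 in OVSAHO and 6 in EFO-21, and none was higher, while of the 8 markers of other cell types 2 were higher and 1 lower in OV-90, 2 and 2 in Kuramochi, 3 and 4 in OVSAHO and 2 and 1 in EFO-21. The part of these markers in the results was not tested, and in bulk RNA fewer cells of a kind and less RNA per cell cannot be told apart.

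In the parental lines, ATM, RBBP8, RAD51D, FANCA, FANCF, RMI2, RIF1 and SHLD1 set 1 or more lines apart from all the others. A gene was said to stand apart where it differed from each of the other 3 lines in the same direction by at least 2-fold at an adjusted p under 0.05 (limma, Benjamini-Hochberg over all genes). That held for 8 of the 46 genes, against 46.3% of all genes in the table. An F test over the 4 lines called 44 of the 46 genes, where it called 93.5% of all genes. Between any pair of parental lines 7 to 14 of the 46 differed by at least 2-fold, against 37.6% to 50.2% of all genes. Both the count of genes standing apart and the counts between pairs were thus below the shares of the whole table.

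ATM, the kinase that signals double-strand breaks (chr11:108093771-108239829, GRCh37), spanned 3.11 log2 units between parental lines. It was at 4.19 and 5.10 in the parental OV-90 libraries, at 7.15, 6.22 and 6.27 in Kuramochi, at 6.26, 6.53 and 6.69 in OVSAHO, and at 7.79, 7.65 and 7.83 in EFO-21. OV-90 was lowest and EFO-21 highest, with no overlap of either with the other lines, and the libraries of Kuramochi and OVSAHO overlapped (difference of means 0.05, adjusted p 0.8868). The ATM transcript is long (12915 bases), and long transcripts were low in parental OV-90. The part of that shift in the span was not tested. With the length trend removed, ATM still stood apart as low in OV-90 and high in EFO-21. FANCF, a core complex subunit (chr11:22644079-22647369), had the widest range between parental means of the 46 genes (3.39). Its EFO-21 libraries were at 7.75, 8.14 and 7.78, while the means of the other lines were 10.04 (SD 0.25, n = 2) in OV-90, 10.6 (SD 0.22, n = 3) in Kuramochi and 11.3 (SD 0.21, n = 3) in OVSAHO. After resistance FANCF was still at a mean of 7.83 in EFO-21, a change that did not pass the test (adjusted p 0.6682).

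Parental Kuramochi was low in RAD51D, a strand exchange mediator, at 3.49, 3.60 and 3.70, where the means of the other lines lay between 5.57 and 5.95. It was also low in RBBP8, the end resection factor, at 5.87, 6.02 and 5.99, where EFO-21 averaged 7.42 (SD 0.10), OVSAHO 8.05 (SD 0.09) and OV-90 8.58 (SD 0.53). Neither gene had a Kuramochi library that overlapped another parental line. RMI2, a subunit of the BLM dissolvasome, was highest in EFO-21 at 9.65, 9.95 and 9.82 and lay between 7.60 and 8.65 on average elsewhere. FANCA, the core complex scaffold (chr16:89793091-89883385), was highest in OV-90 at 8.18 and 8.41, with means of 6.59 to 7.24 in the other lines. RIF1 was low in OV-90 (4.24 and 5.05, with means of 5.68 to 6.88 elsewhere) and SHLD1 was high there (7.67 and 7.38, with means of 6.07 to 6.40 elsewhere). With the length trend removed, or without library 2, RIF1 and SHLD1 no longer stood apart in OV-90 and BRCA1 stood apart as low in EFO-21. Without library 3, FANCA no longer stood apart, and BARD1 (low) and RAD51B (high) did in OV-90.

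None of the 5 genes of the BRCA complex stood apart at baseline. BRCA1 was lowest in EFO-21 at 4.27, 4.28 and 4.16, with means of 5.18 (SD 0.44) in OV-90, 5.53 (SD 0.09) in OVSAHO and 5.65 (SD 0.18) in Kuramochi, which did not differ from each other by 2-fold. BRCA2, the central mediator of the pathway, was lowest in OVSAHO at 3.78, 3.84 and 3.95 and highest in EFO-21 at 5.16, 4.89 and 5.23. Its parental Kuramochi libraries ran from 4.35 to 5.22 and overlapped both OV-90 and EFO-21. PALB2, the bridge between BRCA1 and BRCA2, had the narrowest range between parental means of the 46 genes (0.43), and BARD1, at a mean of 4.52 in OV-90 and 6.46 in Kuramochi, had the widest of the complex.

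**Figure D1:**
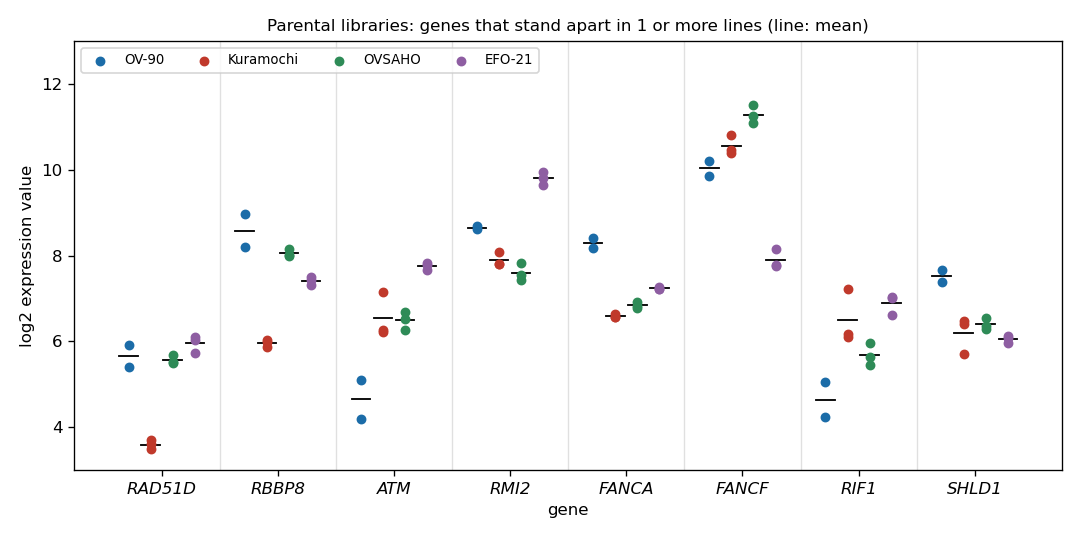
Log2 expression values of the 8 genes that stood apart in at least 1 parental line, on the vertical axis, for each parental library (points, coloured by line) with the mean of each line (black line). FANCF in EFO-21 lies near 8 against means of 10.04 to 11.3 in the other lines, and ATM runs from OV-90 at the bottom to EFO-21 at the top.

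After resistance, most of the 46 genes moved by less than 2-fold, and how many moved and which way differed from line to line. At an adjusted p under 0.05 and at least 2-fold, the test called 5 of 46 genes in OV-90 (10.9%, against 16.1% of all genes), 1 in Kuramochi (2.17%, against 22.5%), 0 in OVSAHO (against 7.76%) and 1 in EFO-21 (2.17%, against 14.3%). In all 4 lines the share at 2-fold was below that of all genes. The 0 in OVSAHO is from limma, where the greatest change was 0.90, 20 genes passed the adjusted p at a smaller fold, and 25 genes had an unadjusted p under 0.05. At any fold, EFO-21 had 27 genes higher and 3 lower, where 25% of all genes were higher and 23.4% lower. OVSAHO had 17 higher and 3 lower (all genes 17.1% and 16.2%), OV-90 had 14 higher and 6 lower (18.1% and 17.9%), and Kuramochi had 5 higher and 7 lower (23.6% and 23.3%). The rise in EFO-21 thus took in 58.7% of these genes and that in OVSAHO 37%, while Kuramochi was below the table in both directions. For the lower genes of Kuramochi this did not hold in every alternative. With the 23 libraries fitted together 15 of the 46 were lower (27.4% of all genes), and with the length trend removed 14 were (28.5%).

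The median change of the 46 genes was 0.37 in EFO-21 (all genes 0.01), 0.35 in OV-90 (all genes -0.06), 0.21 in OVSAHO (all genes 0.00) and -0.14 in Kuramochi (all genes -0.02). Resistant and parental libraries did not overlap for 37 of the 46 genes in OV-90 (80.4%, against 69.1% of all genes), 36 in EFO-21 (78.3%, against 59.7%), 25 in Kuramochi (54.3%, against 59.2%) and 24 in OVSAHO (52.2%, against 48.4%). These shares were above those of all genes in OV-90 and EFO-21 and near them in the other lines. With the length trend removed, the OV-90 median was 0.01 and its counts were 6 higher and 7 lower (18.4% and 16.7% of all genes). EFO-21 still had 25 higher and 3 lower in that fit (26.4% and 25.5% of all genes).

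**Figure D2:**
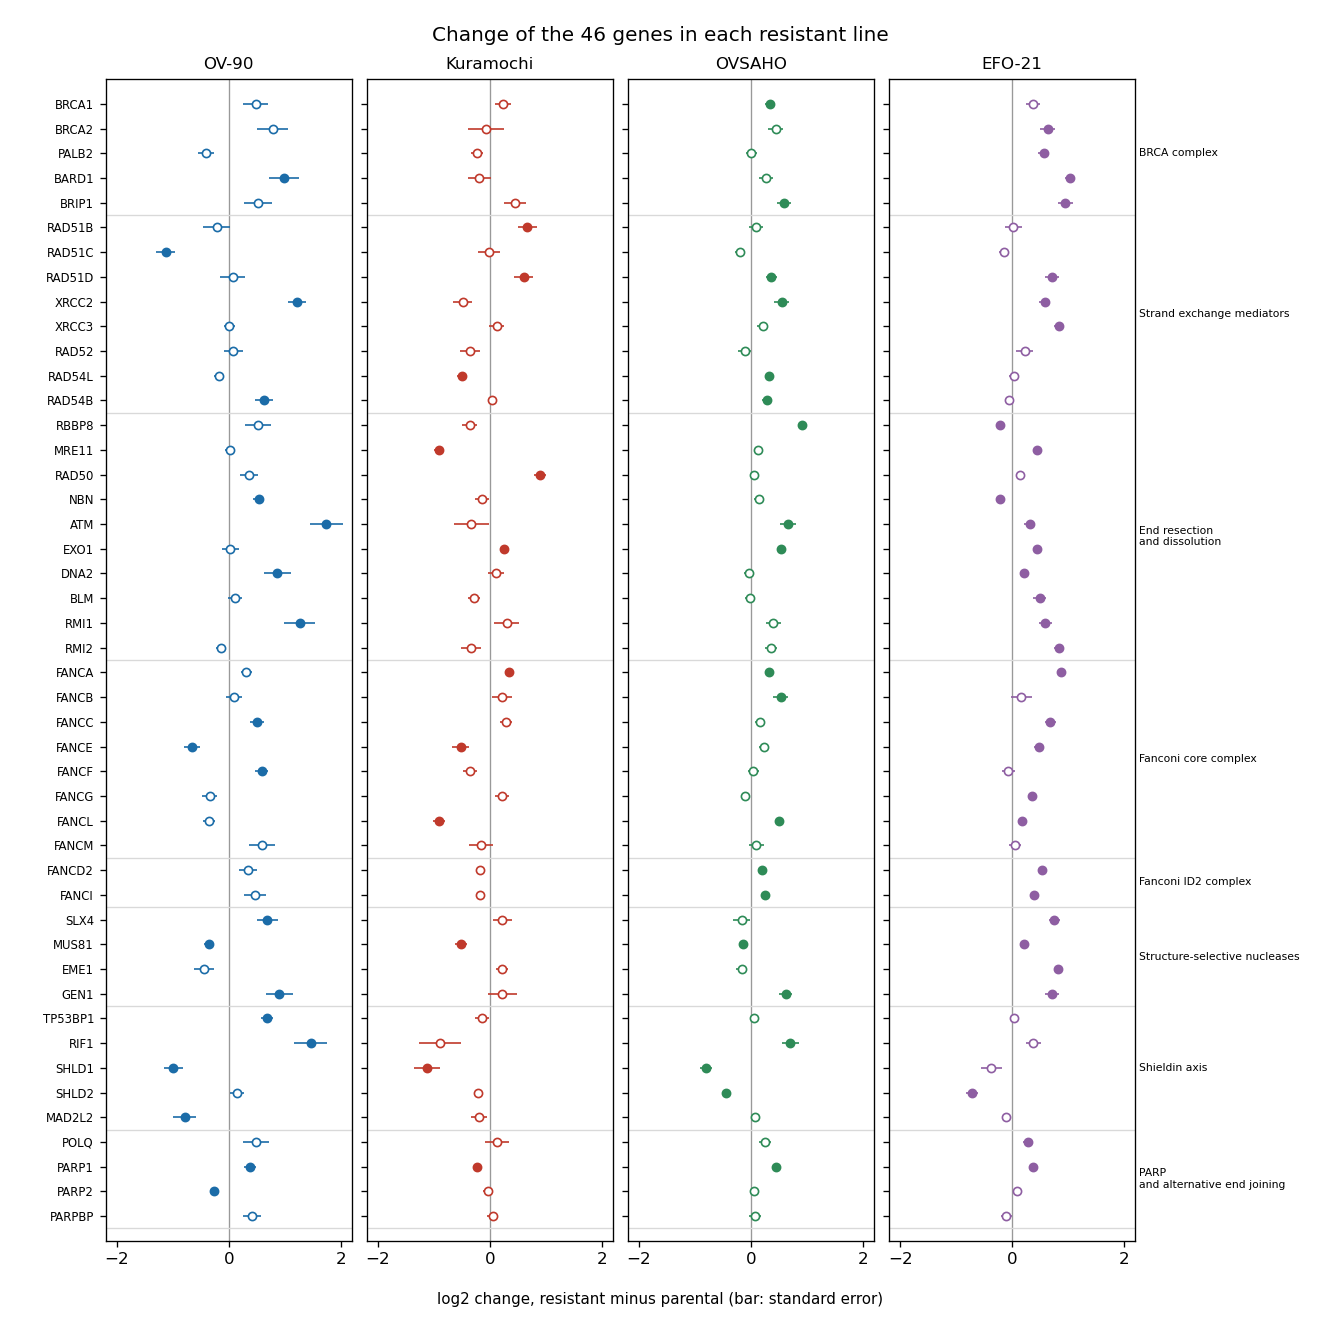
Log2 change (resistant minus parental, horizontal axis, bar for the standard error) of the 46 genes in each of the 4 lines, grouped by role from top to bottom, with filled points at an adjusted p under 0.05 and open points otherwise. EFO-21 shows 27 filled points to the right of 0 and 3 to the left, Kuramochi 5 and 7, and SHLD1 lies left of 0 in every line.

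In EFO-21 genes were called higher in every role group except the shieldin axis. In the BRCA complex, 4 of 5 genes were higher with a median change of 0.64, and all 5 had resistant libraries above all parental ones. BARD1, the partner that BRCA1 needs for its ligase activity (chr2:215590370-215674407), was at 5.94, 5.71 and 5.97 in the parental libraries and at 6.85, 6.95 and 6.94 in the resistant ones, a change of 1.04 (SE 0.09, adjusted p 0.0003766), and it was the only gene of the 46 at 2-fold in this line. Without library 11 its change was 0.96 and no gene was at 2-fold. BRIP1, the helicase that binds BRCA1 (chr17:59756500-59940920), went from 6.17, 5.69 and 6.07 to 6.87, 6.96 and 6.96, a change of 0.95 (SE 0.13, adjusted p 0.002207). BRCA2 rose by 0.64 (SE 0.14, adjusted p 0.01149) and PALB2 by 0.56 (SE 0.09, adjusted p 0.00409). BRCA1 was at 4.52, 4.68 and 4.65 in the resistant libraries, all above the parental ones, but its change of 0.38 (SE 0.13) did not pass the test (adjusted p 0.05327).

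All 4 structure-selective nuclease genes rose in EFO-21, with a median change of 0.74. EME1, the partner of MUS81, rose by 0.82 (SE 0.07), the scaffold SLX4 by 0.76 (SE 0.10) and the resolvase GEN1 by 0.72 (SE 0.13), while MUS81 itself rose by 0.22 (SE 0.04). SLX4 (chr16:3631182-3661607, in 16p13.3) was at 5.93, 5.99 and 6.04 in the parental and at 6.88, 6.78 and 6.56 in the resistant libraries. The Fanconi core complex had 5 of 8 genes higher, led by FANCA, whose parental libraries were at 7.27, 7.22 and 7.23 and whose resistant ones were at 8.16, 8.10 and 8.08, a change of 0.87 (SE 0.04, adjusted p 4.783e-05). FANCC, another core subunit, rose by 0.68 (SE 0.10). Both genes of the ubiquitinated pair rose, FANCD2 by 0.54 (SE 0.06) and FANCI by 0.40 (SE 0.04). FANCB, FANCF and FANCM did not pass the test, with changes of 0.17, -0.07 and 0.05.

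End resection and dissolution had 7 of 10 genes higher and 2 lower in EFO-21. RMI2, already the highest of the 4 lines at baseline, rose by a further 0.84 (SE 0.09), and RMI1, its partner, by 0.60 (SE 0.12). The exonuclease EXO1 rose by 0.45 (SE 0.06), MRE11 by 0.44 (SE 0.05) and ATM by 0.31 (SE 0.09). RBBP8 fell by 0.21 (SE 0.06, adjusted p 0.03999) and NBN fell by 0.21 (SE 0.06, adjusted p 0.02509), opposite to MRE11, while RAD50 did not pass the test (0.13, SE 0.06, adjusted p 0.09218). Among the 8 strand exchange mediators, XRCC3 rose by 0.83 (SE 0.08), RAD51D by 0.71 (SE 0.12) and XRCC2 by 0.58 (SE 0.10), while the other 5 genes of that group did not pass the test. The shieldin axis had no gene called higher, which held for no other group in this line, and SHLD2 was lower. RIF1 of that axis was higher in all resistant libraries than in the parental ones. Its change of 0.38 (SE 0.13) did not pass the test (adjusted p 0.05294), much as for BRCA1.

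In OVSAHO the changes were smaller and mostly upward. RBBP8 (chr18:20378224-20606451) was at 8.02, 7.98 and 8.15 in the parental libraries and at 8.97, 8.94 and 8.95 in the resistant ones, a change of 0.90 (SE 0.05, adjusted p 0.0002428) and the greatest of the 46 genes in this line. RIF1 rose by 0.70 (SE 0.16), ATM by 0.66 (SE 0.14), GEN1 by 0.62 (SE 0.12), BRIP1 by 0.58 (SE 0.13) and XRCC2 by 0.55 (SE 0.13). BRCA1 rose by 0.34 (SE 0.09, adjusted p 0.02886), the only line in which it passed the test, and with the length trend removed it did not pass there either (0.14, adjusted p 0.2396). With that trend removed, RIF1 (0.42), ATM (0.39), GEN1 (0.38) and BRIP1 (0.36) were still called. BRCA2 was higher in all 3 resistant libraries (4.26, 4.23 and 4.41) than in the parental ones but did not pass (0.44, SE 0.14, adjusted p 0.05344), and BARD1 (0.28, SE 0.13) and PALB2 (0.01, SE 0.10) did not pass either. The 3 genes that fell were SHLD1, SHLD2 and, by 0.15, MUS81. The count of 17 genes called higher fell to 8 without parental library 8, 7 without resistant library 20 and 7 without resistant library 21. The share of all genes called higher fell too, from 17.1% to 12.1%, 10.7% and 11.4%.

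In OV-90 the genes called at 2-fold were ATM, RIF1, RMI1 and XRCC2, which were higher, and RAD51C, which was lower. ATM went from 4.19 and 5.10 to 6.37, 6.35 and 6.46, a change of 1.75 (SE 0.30, adjusted p 0.02101), and 1.11 (adjusted p 0.02028) with the length trend removed. RIF1, which acts with TP53BP1 (chr2:152266397-152364527), went from 4.24 and 5.05 to 6.04, 5.95 and 6.34, a change of 1.47 (SE 0.30, adjusted p 0.02709), and 0.82 (adjusted p 0.03671) with the trend removed. In none of the genes called higher at 2-fold did the parental and resistant libraries overlap. RMI1 (chr9:86595713-86618989), at 4.27 and 4.73 before and 6.12, 5.71 and 5.47 after, changed by 1.27 (SE 0.28, adjusted p 0.03039), and by 1.13 (adjusted p 0.02645) with the trend removed. XRCC2, at 5.92 and 5.82 before and 7.17, 6.84 and 7.24 after, changed by 1.21 (SE 0.16, adjusted p 0.01458), and by 0.87 (adjusted p 0.01983) with the trend removed. All 4 kept their direction and their adjusted p under 0.05, but with the trend removed only ATM and RMI1 were still at 2-fold among them.

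RAD51C, a strand exchange mediator and a tumour suppressor gene of ovarian cancer (chr17:56769934-56812972), was called lower in OV-90 alone. Its libraries were at 8.41 and 7.92 in parental OV-90 and at 7.01, 7.05 and 7.06 in resistant OV-90, a change of -1.13 (SE 0.16, adjusted p 0.01672) and of -1.09 (adjusted p 0.01052) with the length trend removed. The changes were -0.01 (SE 0.20) in Kuramochi, -0.20 (SE 0.09) in OVSAHO and -0.15 (SE 0.09) in EFO-21, none past the test. The change in OV-90 differed from that in Kuramochi by -1.12 (SE 0.22, adjusted p 0.0003312), from that in OVSAHO by -0.93 (adjusted p 0.003485) and from that in EFO-21 by -0.98 (adjusted p 0.001508). Parental OV-90 was also the line with the highest RAD51C level, and its resistant libraries lay between the parental means of Kuramochi (6.71) and EFO-21 (7.47). BARD1 (0.99, SE 0.27) and GEN1 (0.91, SE 0.25) were called higher in OV-90 at less than 2-fold, and neither passed with the length trend removed (0.57, adjusted p 0.0729, and 0.30, adjusted p 0.1955). BRCA1, BRCA2 and BRIP1 were higher in all 3 resistant libraries without passing (0.48, 0.79 and 0.52), and with the length trend removed they were at -0.06, 0.16 and -0.06, so BRCA1 and BRIP1 turned sign. PALB2 was lower in all 3 without passing (-0.41, SE 0.14, adjusted p 0.072), though it passed with the length trend removed (-0.66, adjusted p 0.02796). The OV-90 calls rest on each resistant library: 0, 1 and 0 of the 46 genes were at 2-fold without library 13, 14 or 15. All genes lost their calls as well, with 1.43%, 1.96% and 1.64% of them at 2-fold in these fits. Leaving out parental library 2 or 3 leaves 1 parental library, and the median change of the 46 genes was then 0.14 or 0.55.

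In Kuramochi, 2 partners of the same trimming complex moved in opposite directions. MRE11 (chr11:94148736-94227051) was at 7.77, 7.69 and 7.59 in the parental libraries and at 6.67, 6.88 and 6.76 in the resistant ones, a change of -0.91 (SE 0.09, adjusted p 0.0004673). RAD50 (chr5:131891711-131982041) was at 7.30, 7.03 and 6.96 before and at 8.0, 8.08 and 7.90 after, a change of 0.90 (SE 0.11, adjusted p 0.001068). Exons of RAD50 overlap another gene on the same strand, and the part of that gene was not tested. The third subunit, NBN, did not pass the test (-0.14, SE 0.12, adjusted p 0.395). FANCL, the E3 ligase of the core complex (chr2:58386378-58468545), fell as far as MRE11, from 6.88, 7.11 and 7.04 to 6.01, 6.08 and 6.19, a change of -0.91 (SE 0.11, adjusted p 0.0008031). FANCE and RAD54L also fell, by 0.52 (SE 0.16) and 0.50 (SE 0.09), and MUS81 fell by 0.51 (SE 0.10).

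Among the genes that rose in Kuramochi, RAD51B changed by 0.67 (SE 0.18) and RAD51D by 0.60 (SE 0.18), from parental libraries at 3.49, 3.60 and 3.70 to resistant ones at 4.25, 4.29 and 4.05. RAD51D thus stayed below the parental means of the other 3 lines. Like those of RAD50, its exons overlap another gene on the same strand. FANCA rose by 0.35 (SE 0.08) and EXO1 by 0.26 (SE 0.07). None of the 5 BRCA complex genes passed the test in Kuramochi, with changes from -0.23 in PALB2 to 0.45 in BRIP1. With the length trend removed, BRIP1 alone of them passed (0.45, SE 0.10, adjusted p 0.007818). RIF1 was lower in all 3 resistant libraries (5.78, 5.98 and 5.09) than in the parental ones (7.23, 6.11 and 6.17), but its change of -0.88 had a wide error (SE 0.37) and did not pass the test (adjusted p 0.09786). It passed with the length trend removed (-0.84, SE 0.20, adjusted p 0.01008).

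**Figure D3:**
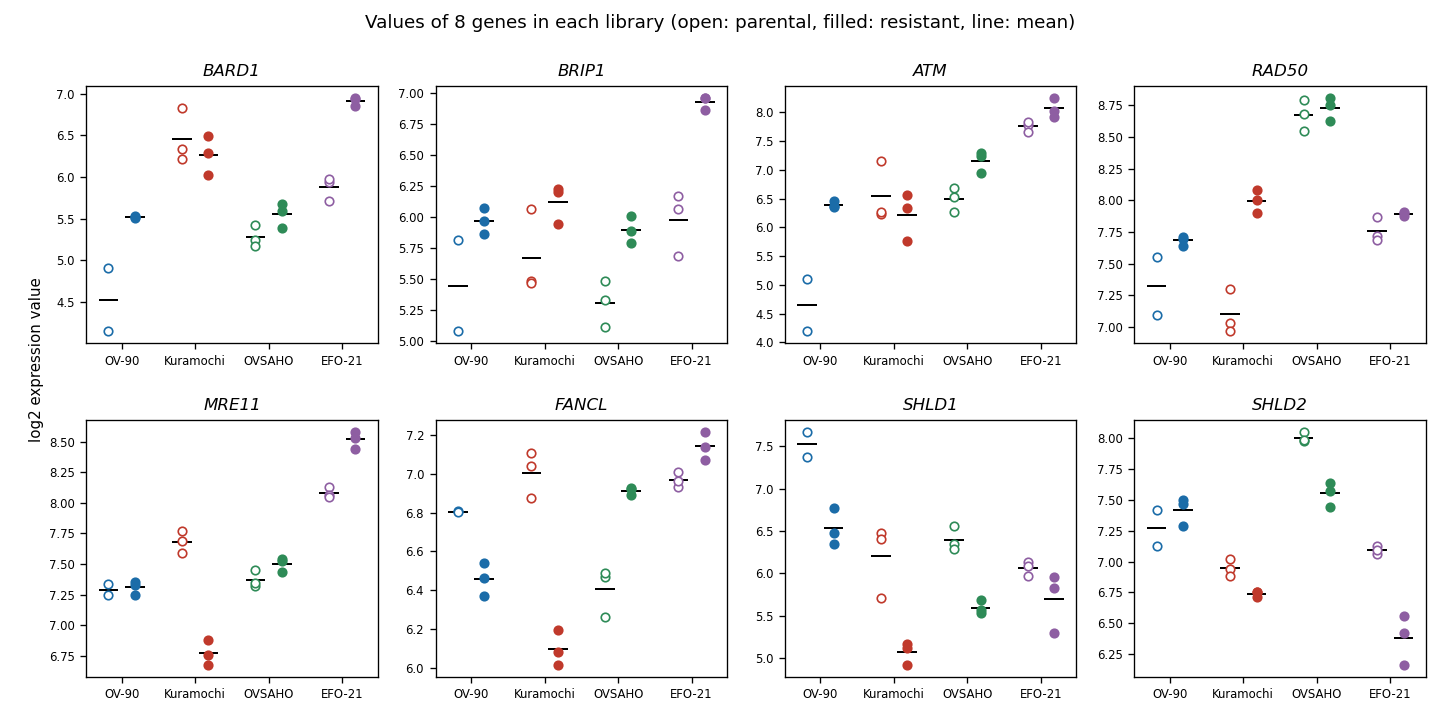
Log2 expression values (vertical axis, a scale of its own in each panel) of 8 genes in every library, with open points for parental and filled points for resistant libraries and a black line for each group mean. MRE11 and FANCL are lower and RAD50 higher in resistant Kuramochi, and all resistant SHLD1 points lie below the parental points of the same line.

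SHLD1 and SHLD2, subunits of shieldin, were lower on average over the 4 lines, while 21 of the other genes were higher. SHLD1, a small subunit of the complex (chr20:5731039-5845041), was at 7.67 and 7.38 in parental and 6.35, 6.77 and 6.48 in resistant OV-90, at 5.71, 6.48 and 6.41 and then 4.92, 5.12 and 5.17 in Kuramochi, at 6.56, 6.35 and 6.29 and then 5.54, 5.57 and 5.69 in OVSAHO, and at 5.97, 6.13 and 6.09 and then 5.30, 5.83 and 5.96 in EFO-21. In each of the 4 lines every resistant library was below every parental one. The change was -0.99 (SE 0.18, adjusted p 0.02251) in OV-90, or -0.66 (adjusted p 0.02535) with the length trend removed, -1.13 (SE 0.23, adjusted p 0.008423) in Kuramochi and -0.80 (SE 0.10, adjusted p 0.002656) in OVSAHO. In EFO-21 it was -0.37 (SE 0.18) and did not pass the test (adjusted p 0.1458), and a difference of the change between lines was not shown (F test, adjusted p 0.06763). Averaged over the lines, SHLD1 fell by 0.81 (adjusted p 3.721e-05), and by 0.70 (adjusted p 4.716e-05) with the length trend removed. In Kuramochi the 2-fold call was lost without library 5, at -0.99.

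SHLD2, the subunit that binds single-stranded DNA, fell by 0.71 (SE 0.11, adjusted p 0.002824) in EFO-21 and by 0.45 (SE 0.06, adjusted p 0.003389) in OVSAHO. In OVSAHO it went from 7.98, 8.05 and 7.99 to 7.44, 7.58 and 7.64, and in EFO-21 from 7.12, 7.06 and 7.09 to 6.16, 6.42 and 6.56. Its change was -0.21 (SE 0.08, adjusted p 0.0726) in Kuramochi and 0.15 (SE 0.13, adjusted p 0.4074) in OV-90, or -0.05 with the length trend removed. The change differed between OV-90 and EFO-21, the lines picked for its highest and lowest value, by 0.86 (SE 0.14, adjusted p 8.124e-05). SHLD2 has near-identical copies, and the table lists SHLD2P1, SHLD2P2 and SHLD2P3, of which SHLD2P2 had means of 7.14 in parental and 6.03 in resistant EFO-21 and of 7.65 and 6.94 in OVSAHO. Reads of the gene and its copies cannot be told apart here. Of the other genes of the axis, TP53BP1 was higher in OV-90 (0.68, and 0.07 with an adjusted p of 0.5289 with the length trend removed), as was RIF1, RIF1 was higher in OVSAHO, and MAD2L2 was called lower in OV-90 alone (-0.79, SE 0.20, adjusted p 0.04033), which did not pass with the length trend removed (-0.28, adjusted p 0.1224).

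In a fit of all 23 libraries with the line as a block, 21 of the 46 genes were higher on average after resistance (16.4% of all genes) and 3 were lower (16.6% of all genes), none at 2-fold. The greatest average rises were those of BRIP1 (0.63, adjusted p 0.0001611), RMI1 (0.61, adjusted p 0.001144) and GEN1 (0.60, adjusted p 0.0006215), and the genes that fell were SHLD1, SHLD2 (-0.33, adjusted p 0.005793) and RAD51C (-0.33, adjusted p 0.03738). FANCA had an average of 0.47 (adjusted p 3.488e-05), and its change in OV-90 was 0.32 (adjusted p 0.05417), or -0.10 (adjusted p 0.2069) with the length trend removed. BRCA1 (0.35), BRCA2 (0.43) and BARD1 (0.50) were higher on average, of which BRCA1 (0.17, adjusted p 0.06655) and BRCA2 (0.21, adjusted p 0.08627) did not pass with the length trend removed, and PALB2 was not (0.00, adjusted p 0.9833). Of these 24 calls, 16 held when any 1 library was left out. With the length trend removed 11 held, those of BARD1, BRIP1, RMI1, FANCA, FANCC, EXO1, XRCC3, GEN1, RAD51C, SHLD1 and SHLD2. RAD51C is not among the 16, as each of 10 libraries ended its call when left out.

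No gene of the 46 was called in the same direction in all 4 lines. RAD51D, XRCC2, ATM, EXO1, FANCA, GEN1 and PARP1 were called higher in 3 lines, and SHLD1 and MUS81 lower in 3. With the length trend removed, XRCC2, ATM, EXO1 and SHLD1 were still called in those 3 lines, while RAD51D lost its calls in Kuramochi (0.62, adjusted p 0.05884) and OVSAHO (0.12, adjusted p 0.387), FANCA in OVSAHO (0.19, adjusted p 0.07497), GEN1 and PARP1 in OV-90, and MUS81 in OVSAHO (-0.10, adjusted p 0.1084). Over 13 alternatives in OVSAHO, MUS81 kept its call in 2 and RAD51D in 6. PARP1, which binds DNA breaks, was higher in OV-90 (0.38, SE 0.10, and 0.13 with an adjusted p of 0.1715 with the length trend removed), OVSAHO (0.46, SE 0.06) and EFO-21 (0.38, SE 0.03) and lower in Kuramochi (-0.23, SE 0.06, adjusted p 0.0197). The table also lists the pseudogene PARP1P1 with group means of 9.25 to 10.4, in the range of PARP1 itself. MUS81 was lower in OV-90 (-0.36, SE 0.09, and -0.27 with the length trend removed), Kuramochi (-0.51) and OVSAHO (-0.15, SE 0.04) and higher in EFO-21 (0.22). It was thus opposite to PARP1 in OV-90 and OVSAHO and had the same direction in Kuramochi and EFO-21. In all, 8 genes were called in both directions in different lines and 3 (RAD52, FANCM and PARPBP) in none. The shares of all genes were not computed for these counts over lines, so whether they are unusual is not known.

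The test of the difference itself, an F test of the change over the 4 lines, called 38 of the 46 genes, where it called 75.1% of all genes. MRE11 and FANCL had the smallest adjusted p of the 46 in that test (4.795e-09 and 1.736e-08). MRE11 rose by 0.44 in EFO-21 and fell by 0.91 in Kuramochi (difference 1.35, SE 0.09, adjusted p 1.209e-09), and FANCL rose by 0.51 (SE 0.08) in OVSAHO and fell by 0.91 in Kuramochi (difference 1.42, SE 0.11, adjusted p 6.861e-09). For both genes the pair of lines was picked for the highest and lowest change. The difference was past the threshold for BARD1 (adjusted p 0.0006647) and PALB2 (adjusted p 3.846e-05), and not for BRCA1 (adjusted p 0.6872), BRCA2 (adjusted p 0.107), BRIP1 (adjusted p 0.2833) or GEN1 (adjusted p 0.1761). For BRCA1 the changes were 0.48 in OV-90, 0.24 in Kuramochi, 0.34 in OVSAHO and 0.38 in EFO-21, and with the length trend removed -0.06, 0.22, 0.14 and 0.32.

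Of 47 other genes of the same pathways, 18 were higher and 9 lower in EFO-21 (median 0.12), 8 and 5 in OVSAHO (median 0.04), 7 and 14 in OV-90 (median -0.17), and 7 and 17 in Kuramochi (median -0.18). In each line that median was below the one of the 46 genes, by the least in Kuramochi. Of 12 genes of classical end joining, the pathway that rejoins ends without a template, 5 were higher and 3 lower in EFO-21 (median 0.01), 2 and 4 in OVSAHO (median -0.18), 2 and 3 in OV-90 (median -0.12) and 1 and 5 in Kuramochi (median -0.20).

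Genes of DNA replication and division moved alongside in the same lines. Of 20 proliferation genes, 15 were higher and 2 lower in EFO-21 (median 0.43), 14 and 0 in OVSAHO (median 0.36), 4 and 4 in OV-90 (median 0.06), and 5 and 4 in Kuramochi (median 0.07). The summed level of the 20 genes, on the log2 scale, was 13.9 to 14.0 in parental and 14.3 in resistant EFO-21, and 13.8 to 13.9 in parental and 14.1 to 14.2 in resistant OVSAHO, so the groups did not overlap. The part of proliferation in the rise of the 46 genes was not tested.

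The change followed transcript length in OV-90 more than in the other lines. Over the 46 genes, Spearman's rho between the length of the canonical transcript and the change was 0.71 in OV-90, 0.34 in OVSAHO, 0.33 in EFO-21 and 0.20 in Kuramochi, as a description across genes that share the same libraries. Over all 18920 genes with a length it was 0.43, 0.26, 0.11 and 0.05. In OV-90 the median change of all genes ran from -0.49 in the shortest of the 4 length bins to 0.47 in the longest. The 46 genes are long: 19 of them fall in the longest bin and 3 in the shortest. In OV-90 the 19 long genes had a median change of 0.52 and the others 0.01, and in EFO-21 the medians were 0.49 and 0.17.

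**Figure D4:**
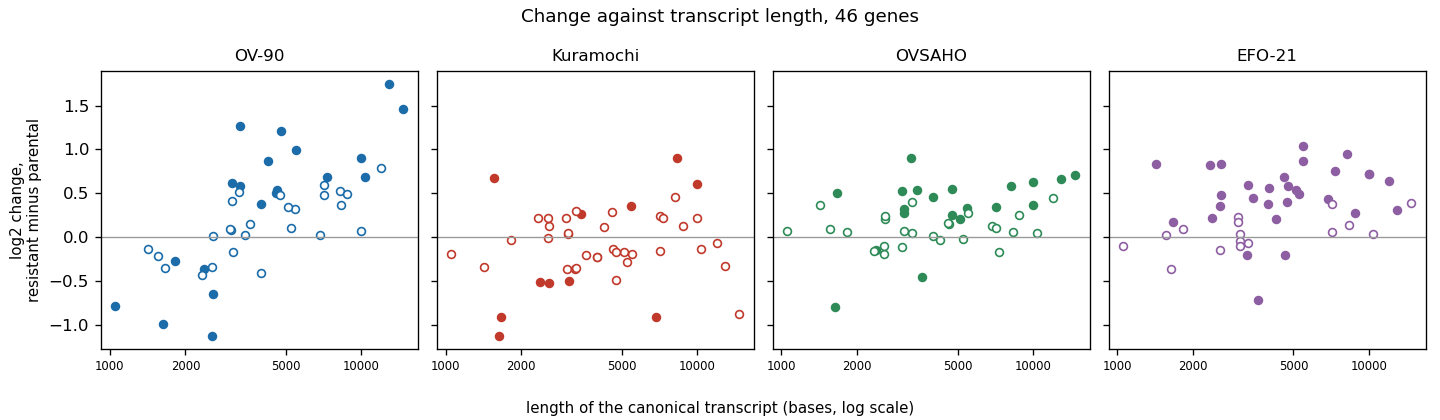
Log2 change (resistant minus parental, vertical axis) of the 46 genes against the length of the canonical transcript in bases (horizontal axis, log scale), with filled points at an adjusted p under 0.05. In OV-90 the points rise from left to right, with ATM at 1.75 and RIF1 at 1.47 at the long end and SHLD1 at -0.99 near the short end.

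The promoters of the 46 genes were read for 3 motifs that many genes of the cell cycle carry. RefSeq promoter sequence on GRCh38.p14 was found for 39 of the 46, and the 250 bases before the annotated start were searched on both strands. E2F type motifs (TTTCCCGC, TTTGGCGC, TTTCGCGC or TTTGCCGC) were in 2 of the 39 (5.13%), against 4.06% of 14340 promoters of genes in the table and 8 of 17 for the proliferation genes. The CCAAT box was in 15 of the 39 (38.5%), against 34.4% of all promoters and 14 of 17 of the proliferation genes, and CHR type motifs (TTTGAA or TTCGAA) were in 6 (15.4%), against 10.6% of all. The 2 genes with an E2F type motif were FANCA and FANCC, both called higher in EFO-21. With a CCAAT box the median change in EFO-21 was 0.38 (9 of 15 genes higher), and without one it was also 0.38 (15 of 24 higher).

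The 5 promoters shown are those of the 2 genes with an E2F type motif, of BARD1, at 2-fold in EFO-21, and of ATM and RAD51C, which moved furthest up and down in OV-90. Capitals mark E2F type motifs and CCAAT boxes on either strand, and each sequence is written 5′ to 3′ on the gene's strand and ends at the base before the annotated start. FANCA is chr16:89816648-89816897 on the minus strand, FANCC chr9:95317710-95317959 minus, BARD1 chr2:214809684-214809933 minus, ATM chr11:108222817-108223066 plus and RAD51C chr17:58692323-58692572 plus, all on GRCh38.p14.
FANCA: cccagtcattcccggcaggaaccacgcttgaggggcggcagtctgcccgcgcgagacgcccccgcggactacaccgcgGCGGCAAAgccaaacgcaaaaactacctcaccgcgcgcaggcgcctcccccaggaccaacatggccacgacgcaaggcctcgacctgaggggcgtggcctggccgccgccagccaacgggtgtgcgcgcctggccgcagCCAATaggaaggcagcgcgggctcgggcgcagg
FANCC: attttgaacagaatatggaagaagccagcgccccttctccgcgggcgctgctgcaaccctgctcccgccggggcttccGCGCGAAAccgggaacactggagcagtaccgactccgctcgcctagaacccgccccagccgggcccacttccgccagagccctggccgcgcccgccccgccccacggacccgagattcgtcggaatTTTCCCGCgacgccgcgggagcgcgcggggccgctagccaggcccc
BARD1: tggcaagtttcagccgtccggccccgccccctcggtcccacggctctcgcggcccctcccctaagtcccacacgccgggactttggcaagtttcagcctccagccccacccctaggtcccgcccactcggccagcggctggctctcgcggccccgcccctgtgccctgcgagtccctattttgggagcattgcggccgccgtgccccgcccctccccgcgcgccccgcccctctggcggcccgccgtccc
ATM: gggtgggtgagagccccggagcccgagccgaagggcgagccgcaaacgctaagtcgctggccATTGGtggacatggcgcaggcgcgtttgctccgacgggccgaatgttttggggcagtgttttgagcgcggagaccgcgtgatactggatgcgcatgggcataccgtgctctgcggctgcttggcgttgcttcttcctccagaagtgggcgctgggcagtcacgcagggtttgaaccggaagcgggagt
RAD51C: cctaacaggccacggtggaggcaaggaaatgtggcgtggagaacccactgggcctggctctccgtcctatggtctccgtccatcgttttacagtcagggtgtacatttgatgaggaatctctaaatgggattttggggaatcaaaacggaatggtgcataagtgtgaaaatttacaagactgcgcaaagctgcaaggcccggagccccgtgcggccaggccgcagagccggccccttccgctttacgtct

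FANCA carries 1 E2F type motif and 1 CCAAT box in this window, FANCC carries 2 E2F type motifs and no CCAAT box, and ATM carries 1 CCAAT box. FANCC and ATM also carry 1 CHR type motif each, which is not in capitals. BARD1 and RAD51C hold none of the letters searched, although BARD1 was the gene of the set with the greatest rise in EFO-21. A match is a description of the letters and not of a bound site.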

How the data were processed

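Total RNA of 23 cultures was sequenced from stranded mRNA libraries and aligned to GRCh37 (hg19), the builds named in the submitters' processing notes. Per the study's methods, the authors dropped exons with few reads, summarised each gene by a robust linear model and quantile normalized the result (the table marks some genes as a mean of log2 values instead), so the deposited values are log2 expression values with no depth. The exon number per gene was also deposited. Genes were matched by NCBI Gene ID.

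Each line was fitted alone with limma 3.58.1 in R 4.3.3 (mean-variance trend, two-sided, Benjamini-Hochberg over all 21658 genes, no low-value filter). The average used all 23 libraries as units with the line as an additive term, and differences between lines used 8 group means. Exact permutation of 3 against 3 or of 2 against 3 libraries cannot go below p = 0.1, so single-gene p-values are from limma. The fits were tested on simulated data. Alternatives changed the fit, filter, scaling, fold threshold, libraries and, chosen after seeing the data, the transcript length trend (GENCODE canonical lengths).

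BRCA1, BRCA2, PALB2 and BARD1 are named in every line, with genes called at 2-fold, the 3 largest changes per line, genes standing apart at baseline, and genes called in 3 lines or on average. Other genes named to complete a role group were chosen after their values were seen. The 46 genes and all lists were chosen with earlier results of these data known. Some members have exons shared with other genes, and whether reads were counted by strand is not given in the sources used here.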

Additional observations from a re-analysis of the deposited data

Results flagged for a closer look

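The change after resistance differed between lines for 38 of the 46 genes by limma's F test, which called 75.1% of all genes. Of the 32 genes named by rule, 25 differed. In 17 of these the estimates of the highest and lowest change had opposite signs, whether or not each passed its own test. Of all 46 genes, 8 were called in both directions in different lines. The share of all genes was computed for neither count. Each difference below is the highest change minus the lowest on the log2 scale, between the pair of lines named. The pair was picked by these same changes among genes that had passed the F test. Its own adjusted p, under 0.05 for each, is over genes and not over pairs, and adds no support to the F test.

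Between OV-90 and Kuramochi, OV-90 being higher, the difference was 2.35 for RIF1, 2.08 for ATM, 1.70 for XRCC2, 0.97 for RMI1, 0.94 for FANCF and 0.65 for FANCI. The OV-90 side of these rests on the parental libraries whose long transcripts were low, and the part of that shift was not tested in the difference. Kuramochi was higher than OV-90 by 1.12 for RAD51C. OV-90 was higher than EFO-21 by 0.86 for SHLD2 and by 0.67 for RAD54B.

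EFO-21 was higher than Kuramochi by 1.35 for MRE11, 1.23 for BARD1, 1.17 for RMI2, 0.74 for MUS81 and 0.71 for FANCD2. It was higher than OV-90 by 0.97 for PALB2, 0.82 for XRCC3, 0.65 for RAD51D and 0.56 for FANCA, and higher than OVSAHO by 0.92 for SLX4 and 0.52 for FANCC. OVSAHO was higher than Kuramochi by 1.42 for FANCL, 1.27 for RBBP8 and 0.69 for PARP1, and higher than OV-90 by 0.51 for EXO1. Kuramochi was higher than OVSAHO by 0.84 for RAD50.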

How the results depend on the processing

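No paired analysis was possible because the columns of the table carry library numbers and no replicate number. No called change of a gene turned sign with the length trend removed, but 22 changes that were not called did, 13 of them in OV-90 (BRCA1 to -0.06, BRIP1 to -0.06, FANCA to -0.10). Among the named genes whose calls were followed (listed below), no call reversed under the other alternatives run. Shares in brackets here are of all genes in the same fit. For OV-90 the counts were 25 higher (28.1%) and 10 lower (26.7%) with the 23 libraries fitted together. They were 3 lower with no mean-variance trend (15.1%) and 8 higher with the lowest values raised (14.3%). With the length trend removed, 3 were at 2-fold (12.7%) and 6 higher (18.4%). Kuramochi had 15 lower with all libraries together (27.4% of all genes), 11 with weakly expressed genes left out (25.9%) and 14 with the length trend removed (28.5%). OVSAHO had 11 higher with all libraries together (13.4%). EFO-21 had 1 lower with all libraries together (20.7%), 1 with no mean-variance trend (22.4%), and 0 at 2-fold with the length trend removed (14.3%). On average over the lines, 10 were higher with the length trend removed. At 1.5-fold the counts were 15, 6, 5 and 13 in OV-90, Kuramochi, OVSAHO and EFO-21, and with no fold threshold 20, 12, 20 and 30. The share of all genes was not computed for the average with the trend removed or for 1.5-fold. The cause was not tested.

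Without 1 library at a time, OV-90 had 0 to 11 genes at 2-fold, 0 to 26 higher and 0 to 10 lower. At 2-fold, higher and lower, Kuramochi had 0 to 1, 1 to 6 and 5 to 8 (all genes 21% to 22.6%, 18.3% to 25.1% and 18.2% to 25.4%). OVSAHO had 0, 7 to 15 and 2 to 3 (all genes 6.85% to 7.79%, 10.7% to 17.4% and 11% to 14.8%). EFO-21 had 0 to 2, 22 to 25 and 1 to 3 (all genes 13.2% to 13.6%, 21% to 22.1% and 19.2% to 21.4%). The average had 15 to 23 higher and 2 to 4 lower, the difference between lines 34 to 42, the baseline F test 41 to 46, and 7 to 9 genes stood apart. Single calls were followed over the alternatives for part of the named genes. These were BRCA1, BRCA2, PALB2, BARD1, genes at 2-fold, the 3 largest changes per line and genes called in 3 lines. Genes named only for their baseline or their average were not followed. The followed calls held in 186 of 208 values in EFO-21, 142 of 182 in OVSAHO and 88 of 103 in Kuramochi. In OV-90 they held in 77 of 120, which include fits with 1 parental library. With 2 or 3 libraries a group and no depth, changes within the spread were not detectable here.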
